A study of Mus musculus with 20 samples.

Results

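The comparison sets control (Ctrl) bone marrow-derived macrophages at 6 h of stimulation against the same kind of cells at 4 h, over all genes of the table. It uses 2 libraries at 6 h and 2 at 4 h, 4 of the 20 libraries in the series, and the groups were taken from the labelled treatment and time point. The macrophages were grown from the marrow of wild-type C57BL/6 mice for 7 days in RPMI with m-CSF, the growth factor that turns marrow progenitors into macrophages. Both groups received lipopolysaccharide (LPS) together with interferon gamma (IFNg), for 6 h or for 4 h, and neither received any other agent. Other Ctrl libraries were taken at 0, 1 and 2 h, and a parallel set of cells received 250 µM dimethyl itaconate (DI), an ester of the metabolite itaconate, for 12 h before the stimulus. The labels do not say whether the 2 libraries of a group came from separate cultures or mice, so the p-values measure the spread between these libraries, which may be technical.

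LPS is sensed by the receptor TLR4, which activates the transcription factors NF-kB and AP-1 and, through IRF3, the gene of interferon beta. Early target genes such as Tnf and the Cxcl and Ccl chemokines are transcribed within the first hours, and many of their mRNAs carry AU-rich elements in the 3′ untranslated region (UTR) through which decay factors shorten their lifetime. IFNg, together with LPS, raises slower genes such as Nos2, the inducible nitric oxide synthase of inflammatory macrophages.

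Between 4 and 6 h Tnf, Ifnb1 and 7 chemokine genes, among them Cxcl1, Cxcl2, Ccl3 and Ccl4, fell, while Saa3, Nos2, Il4ra and Hif1a rose. The calls of Nos2 and Hif1a were each lost in 4 of 13 alternative fits, and those of Ifnb1 and Il4ra in 1. Of 10361 genes tested, 383 were called (3.7%), 184 higher at 6 h (1.78%) and 199 lower (1.92%), by edgeR's quasi-likelihood test at a Benjamini-Hochberg adjusted p under 0.05. Of the called genes, 154 were higher and 173 lower by at least 2-fold, with median log2 fold changes of 1.31 and −1.45. The 184 higher genes summed to 46617 and 43922 CPM (counts scaled to library size) in the 6 h libraries, against 20970 and 22645 CPM in the 4 h libraries. The 199 lower genes summed to 19577 and 22428 CPM at 6 h, against 51723 and 55256 CPM at 4 h. The median log2 fold change of all genes tested was −0.03.

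The number of calls depends on the libraries in the model. In a model of all 20 libraries, in which the DI libraries enter the estimate of spread, 56 genes were called, 16 higher and 40 lower, and all 56 are among the 383 (14.6% of them). Leaving out replicate 1 or 2 at 6 h left 150 or 162 calls, and leaving out replicate 1 or 2 at 4 h left 105 or 100. The step before it was larger: 1823 genes were called at 4 h against 2 h (17.6%), 837 higher (8.08%) and 986 lower (9.52%). Both comparisons use the 4 h libraries. Without 1 library of that earlier comparison 1064 genes (Ctrl 2 h replicate 1), 1212 (Ctrl 2 h replicate 2), 1013 (Ctrl 4 h replicate 1) or 857 (Ctrl 4 h replicate 2) were called, and 587 in the model of 20 libraries.

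**Figure D1:**
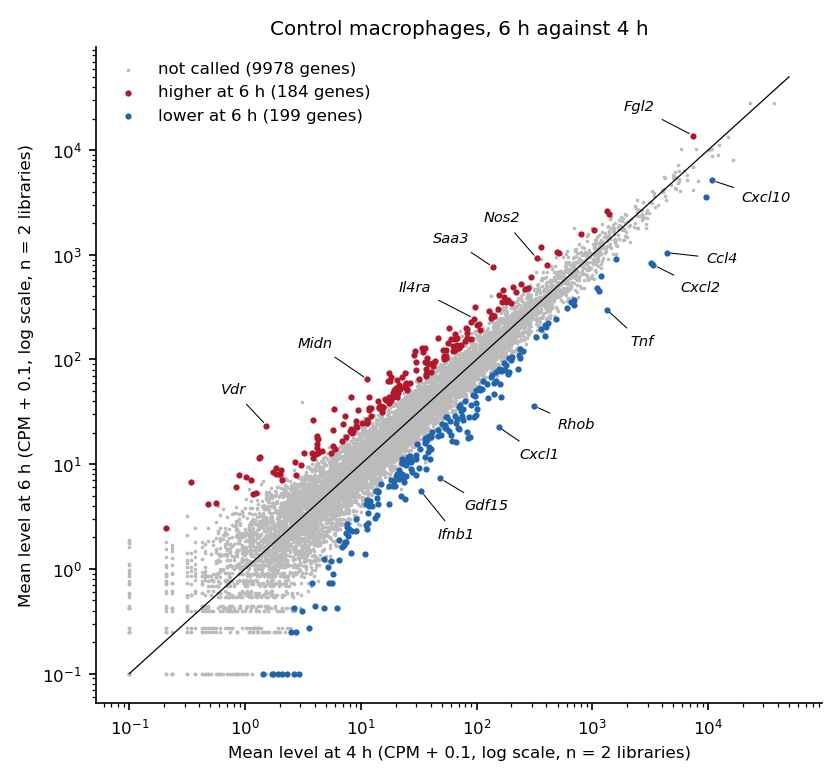
Mean level of each of the 10361 genes tested at 6 h (vertical axis) against 4 h (horizontal axis), in CPM plus 0.1 on log scales, means of 2 libraries. The 184 genes higher at 6 h (red) lie above the line of equal level and the 199 lower genes (blue) below it, with Tnf, Rhob, Cxcl1, Cxcl2 and Ccl4 far below it.

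Total counts ran from 3655977 to 4144450 in the 6 h libraries and from 4549800 to 6022092 in the 4 h libraries, so that 3 counts correspond to 0.88 and 1.03 CPM at 6 h and 0.647 and 0.809 CPM at 4 h, on the TMM-scaled CPM used for all levels except those of markers. The 50 most abundant genes took 27.0 to 27.7% of counts at 6 h and 27.5 to 30.6% at 4 h, and mitochondrial transcripts 1.30 to 1.32% and 1.34 to 1.41%. The 2 libraries of a group differed by a median of 0.249 (6 h) and 0.205 (4 h) on the log2 scale. The 10 macrophage markers, among them Adgre1, Cd68 and Lyz2, were detected in all 4 libraries and summed to 4049 to 4329 CPM at 6 h and 3790 to 4230 CPM at 4 h. Neutrophil markers summed to 260 to 271 CPM at 6 h and 338 to 437 CPM at 4 h, mostly S100a8 and S100a9, while Ly6g was at 0.821 and 0.483 CPM at 6 h and at 0 in both 4 h libraries. Ngp, a neutrophil granule gene, was at 16.1 and 14.7 CPM at 6 h and 30.3 and 24.7 CPM at 4 h. Their part in the results was not tested. T cell, B cell, dendritic cell and fibroblast markers summed to at most 44.4 CPM in any of the 4 libraries, and all 5 erythroid markers were at 0. In bulk RNA, fewer cells of a type and less RNA per cell cannot be told apart.

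The neutrophil-attracting chemokine genes Cxcl1, Cxcl2 and Cxcl3 all lie on chromosome 5 and all were lower at 6 h, so their promoters are shown as the sequences of genes that moved together. Each window, from RefSeq on GRCm38.p6, spans 250 bases before and 50 after the transcription start, and capitals mark matches to the NF-kB motif GGGANNTTC on either strand, which overlap in all 3. The windows are chr5:90890995-90891294 (plus strand) for Cxcl1, chr5:90903649-90903948 (plus strand) for Cxcl2 and chr5:90785851-90786150 (plus strand) for Cxcl3.
Cxcl1: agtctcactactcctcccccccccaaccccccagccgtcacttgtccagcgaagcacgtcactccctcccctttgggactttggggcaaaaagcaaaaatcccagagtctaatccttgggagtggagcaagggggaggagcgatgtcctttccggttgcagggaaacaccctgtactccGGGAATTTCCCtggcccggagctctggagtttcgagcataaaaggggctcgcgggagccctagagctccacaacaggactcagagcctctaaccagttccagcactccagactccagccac
Cxcl2: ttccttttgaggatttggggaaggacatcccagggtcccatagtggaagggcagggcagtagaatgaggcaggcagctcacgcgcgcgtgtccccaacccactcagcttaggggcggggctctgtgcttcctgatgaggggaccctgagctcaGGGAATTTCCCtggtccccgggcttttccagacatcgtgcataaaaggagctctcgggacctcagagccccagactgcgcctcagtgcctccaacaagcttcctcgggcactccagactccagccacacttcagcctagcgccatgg
Cxcl3: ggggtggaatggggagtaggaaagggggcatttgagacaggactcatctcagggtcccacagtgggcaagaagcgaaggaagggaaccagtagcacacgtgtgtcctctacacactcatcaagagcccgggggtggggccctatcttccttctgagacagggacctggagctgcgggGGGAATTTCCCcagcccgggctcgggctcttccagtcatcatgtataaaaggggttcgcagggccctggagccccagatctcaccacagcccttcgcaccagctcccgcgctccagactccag
The same 11 letters stand in all 3 windows, beginning 71, 97 and 73 bases before the start of Cxcl1, Cxcl2 and Cxcl3. Among promoters of this length the motif was found in 4 of 153 genes higher at 6 h (2.61%) and in 9 of 157 lower genes (5.73%), against 3.69% of the 8275 tested genes with a promoter. The AP-1 motif TGANTCA was found in 3.92% of higher and 8.92% of lower genes, against 4.98% of tested genes. In the same order, CRE (TGACGTCA) gave 3.92, 1.91 and 3.5%, and the ISRE core (GAAANNGAA) 7.84, 8.92 and 7.71%. C/EBP (TTGCGCAA) gave 0, 1.27 and 0.302%, and the TATA box (TATAAA) 3.27, 7.01 and 6.9%. The windows of Tnf, Ifnb1 and Cxcl10, also lower, hold 1 NF-kB match each. Those of the lower genes Rhob, Ccl3, Sgk1, Gdf15, Maff, Olr1 and Tnfaip2 hold 0. A match is a description of the letters and not a binding site.

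Cxcl2 showed this fall at the highest counts of the 3. Its level was 764 and 832 CPM in the 6 h libraries, against 3903 and 2841 CPM in the 4 h libraries. Both 6 h libraries lay far under both 4 h libraries, and the log2 fold change was −2.08 ± 0.25 (SE, adjusted p = 0.000133, edgeR, n = 2 per group). Cxcl2 had averaged 10.7, 7298 and 8000 CPM at 0, 1 and 2 h. Cxcl1 was at 12.7 and 32.3 CPM at 6 h, against 174 and 136 CPM at 4 h, a log2 fold change of −2.77 ± 0.37. The ratio of its 2 libraries was larger at 6 h than at 4 h, and the groups did not overlap. Cxcl3 was at 3.09 and 12.6 CPM at 6 h, against 31.8 and 27.8 CPM at 4 h (−1.89 ± 0.41). Unlike those of Cxcl1 and Cxcl2, its call was lost without Ctrl 4 h replicate 1, Ctrl 4 h replicate 2 or Ctrl 6 h replicate 1.

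The macrophage inflammatory protein genes Ccl3 and Ccl4, whose products attract monocytes and T cells, lie side by side on chromosome 11 and fell by similar amounts. Ccl4 was at 929 and 1165 CPM at 6 h, against 4009 and 4748 CPM at 4 h, a log2 fold change of −2.06 ± 0.25. Ccl3 was at 819 and 838 CPM at 6 h, against 2908 and 3479 CPM at 4 h (−1.95 ± 0.23). For both genes the mean was highest at 4 h. Cxcl10, an interferon-induced chemokine for T cells, was at 4292 and 5945 CPM at 6 h, against 10162 and 11542 CPM at 4 h (−1.08 ± 0.23, adjusted p = 0.0124). Its call was lost without Ctrl 4 h replicate 1, Ctrl 4 h replicate 2 or Ctrl 6 h replicate 1, with adjusted p of 0.0507, 0.103 and 0.157. The monocyte chemokine Ccl2 was at 543 and 713 CPM at 6 h, against 1031 and 1331 CPM at 4 h (−0.91 ± 0.24). Its call was lost in the same fits as that of Cxcl10.

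Not every chemokine gene came down. Of 20 chemokine genes tested, out of 23 listed, 7 were lower and 0 higher, against 1.92% lower and 1.78% higher of all genes tested. Their median log2 fold change was −0.36. At an unadjusted p under 0.05 edgeR had 1 higher and 8 lower, and DESeq2 and limma-voom each called 0 higher and 7 lower. The other 13 were not called, and among them Cxcl9, which shares the receptor CXCR3 with Cxcl10, was at 10391 and 10216 CPM at 6 h, against 6277 and 5342 CPM at 4 h. Its log2 fold change was 0.83 ± 0.31 (adjusted p = 0.164), so that it stood higher in both 6 h libraries without passing the test. Cxcl11, a further CXCR3 ligand, was at 2270 and 2398 CPM at 6 h and 2473 and 2368 CPM at 4 h (−0.05 ± 0.23). Ccl5 was at 3737 and 4441 CPM at 6 h and 3071 and 3473 CPM at 4 h (0.32 ± 0.21). Without Ctrl 4 h replicate 1, Ctrl 4 h replicate 2 or Ctrl 6 h replicate 1 the count of lower chemokine genes was 4.

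Tnf, which encodes the cytokine TNF, fell at 6 h in both libraries. It was at 259 and 339 CPM at 6 h, against 1301 and 1365 CPM at 4 h, a log2 fold change of −2.16 ± 0.23 (adjusted p = 0.000101, edgeR, n = 2 per group). The 4 h level was close to the mean of 1432 CPM at 2 h, and the 4 h against 2 h change was −0.10. Ifnb1, the interferon beta gene, was at 7.56 and 3.23 CPM at 6 h, against 21.8 and 44.2 CPM at 4 h (−2.64 ± 0.40). The 4 h libraries of Ifnb1 differed from each other, and both stood above both 6 h libraries. Gdf15, a stress-induced member of the TGF-beta family, was at 6.19 and 8.21 CPM at 6 h, against 38.6 and 58.2 CPM at 4 h (−2.74 ± 0.35).

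Of 25 cytokine genes tested, out of 30 listed, 7 were lower and 0 higher, against 1.92% lower and 1.78% higher of all genes tested. Their median log2 fold change was −0.48 against −0.03 for all genes. At an unadjusted p under 0.05 edgeR had 2 higher and 11 lower, while DESeq2 called 1 higher and 7 lower and limma-voom 0 and 8. Besides Tnf, Ifnb1 and Gdf15 they were Osm (−1.69 ± 0.34), Tnfsf15 (−1.07 ± 0.24), the growth factor Csf1 (−0.97 ± 0.25) and Il12a (−2.24 ± 0.56), which encodes the p35 subunit of interleukin 12. Il12a was at 1.38 and 3.23 CPM at 6 h, against 12.9 and 9.49 CPM at 4 h, and its call was lost without any 1 of the 4 libraries (adjusted p of 0.0607 to 0.211). Osm, which encodes oncostatin M, lost its call without Ctrl 4 h replicate 1 (adjusted p = 0.0611) or Ctrl 6 h replicate 1 (0.0716). Ifnb1, Osm, Il12a, Tnfsf15 and Csf1 were not called in the model of 20 libraries, which called 2 cytokine genes lower. The calls of Tnfsf15 and Csf1 were also lost without Ctrl 4 h replicate 1, Ctrl 4 h replicate 2 or Ctrl 6 h replicate 1.

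Several other cytokine genes did not pass the test. Il6 was at 281 and 260 CPM at 6 h and 336 and 418 CPM at 4 h (log2 fold change −0.48 ± 0.25, adjusted p = 0.306, edgeR). Il12b, the p40 subunit shared by interleukins 12 and 23, was at 1446 and 876 CPM at 6 h and 1416 and 1226 CPM at 4 h, and its groups overlapped (−0.19 ± 0.29). Il1b was at 484 and 485 CPM at 6 h and 707 and 604 CPM at 4 h (−0.44 ± 0.27). Il10, an anti-inflammatory cytokine gene, was at 50.5 and 70.4 CPM at 6 h and 80.3 and 98.1 CPM at 4 h (−0.56 ± 0.28). All 4 had means highest at 4 h. The change of Ptgs2, the inducible cyclooxygenase, was −0.84 ± 0.24 (adjusted p = 0.0548), with 4575 and 3711 CPM at 6 h and 6682 and 8186 CPM at 4 h.

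**Figure D2:**
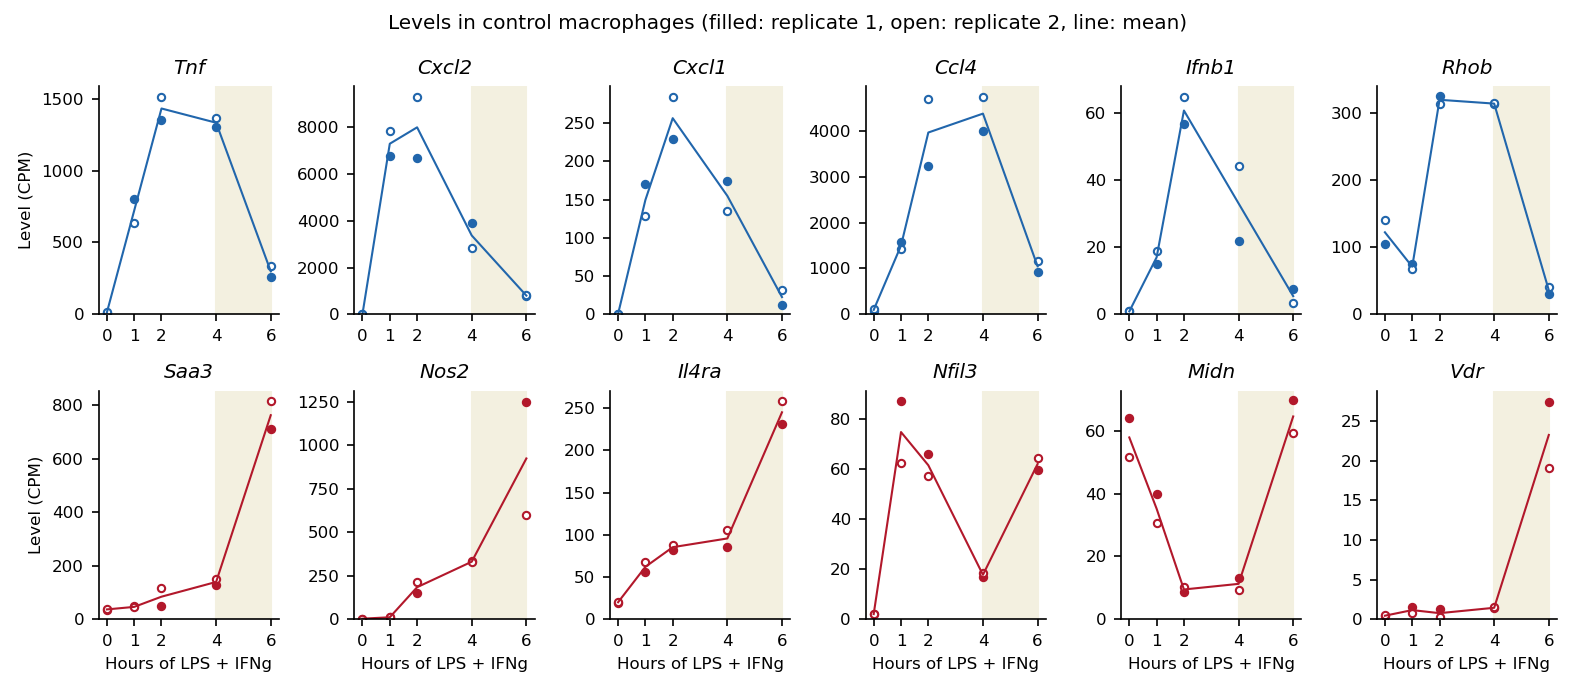
Levels of 12 genes in Ctrl libraries (vertical axes, CPM, each from 0) against hours of LPS and IFNg, with filled points for replicate 1, open points for replicate 2 and a line through the means, and the step from 4 to 6 h shaded. The genes of the upper row fall within the shaded step, Tnf to 259 and 339 CPM, and those of the lower row rise, Saa3 to 710 and 814 CPM.

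The 3′ UTRs of the called genes were searched for the AU-rich nonamer TTATTTATT. These 3 genes are shown because they fell and hold the nonamer, while some genes with falls of similar or larger size hold none. The following stretches of the UTR (GENCODE M21, GRCm38) are those with the most copies in Tnf on chromosome 17 and in Cxcl2 and Cxcl1 on chromosome 5. Capitals mark the nonamers.
Tnf: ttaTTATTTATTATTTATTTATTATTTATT
Cxcl2: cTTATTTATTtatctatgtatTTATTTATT
Cxcl1: gggtcctatttatttatgtatTTATTTATT
The whole UTRs hold 5 nonamers in Tnf, 4 in Cxcl2 and 2 in Cxcl1, where overlapping copies count separately. The nonamer was found in 32 of 197 lower genes with a UTR (16.2%) and in 25 of 184 higher genes (13.6%), against 8.54% of all tested genes. The UTRs of the higher genes were longer, with a median of 1940 bases, against 1522 bases in lower genes and 1218 in all tested genes. Per kilobase there were 0.0747 nonamers in higher genes, 0.128 in lower genes and 0.0694 in all tested genes. The shorter AU-rich pentamer ATTTA differed less, at 1.841, 2.007 and 1.859 copies per kilobase in the same order. Of the other lower genes, Rhob, Gdf15, Ifnb1, Bcor, Sgk1, Ccl3 and Ccl4 hold no copy of the nonamer, and Xylt1 holds 2. Hif1a, which was higher at 6 h, also holds 2.

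The gene with the largest fall among those of at least 20 CPM was Rhob, which encodes the endosomal small GTPase RhoB and lies on chromosome 12 (chr12:8497661-8500009, minus strand, GRCm38). It was at 30.6 and 41.1 CPM at 6 h, against 314 and 314 CPM at 4 h, a log2 fold change of −3.13 ± 0.26 (adjusted p = 1.94e-06, edgeR, n = 2 per group). Both 6 h libraries lay under the 0 h mean of 122 CPM. Sgk1, a serum- and glucocorticoid-induced kinase gene, was at 18.9 and 16.7 CPM at 6 h, against 76.3 and 91.5 CPM at 4 h (−2.24 ± 0.26). Its 2 h mean was 541 CPM, and the change of 4 h against 2 h was −2.69. Olr1, which encodes the scavenger receptor LOX-1, was at 18.6 and 13.5 CPM at 6 h, against 60.4 and 73.1 CPM at 4 h (−2.06 ± 0.28). Bcor, a transcriptional corepressor gene, was at 22.7 and 13.8 CPM at 6 h, against 80.9 and 95.8 CPM at 4 h (−2.28 ± 0.35). The other largest falls were the xylosyltransferase gene Xylt1 (−2.39 ± 0.34), the membrane transporter gene Flvcr1 (−2.06 ± 0.30), and the homeobox gene Hhex, whose call was lost without Ctrl 4 h replicate 1, Ctrl 4 h replicate 2 or Ctrl 6 h replicate 1 (adjusted p of 0.0577, 0.194 and 0.178).

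Immediate-early factors, the transcription factor and phosphatase genes that respond first to a stimulus, went both ways. Of 27 tested, out of 30 listed, 5 were lower and 2 higher, with a median log2 fold change of −0.16. Over all genes tested the shares were 1.92% lower and 1.78% higher. Maff, a small MAF factor, was at 46.4 and 41.7 CPM at 6 h, against 132 and 195 CPM at 4 h (−1.89 ± 0.27), and Csrnp1 was at 62.2 and 56.0 CPM, against 142 and 141 CPM (−1.26 ± 0.23). Mafk and Ier5 were also lower, by −1.05 ± 0.29 and −0.89 ± 0.23. Dusp1, a phosphatase that switches off MAP kinases, was at 494 and 386 CPM at 6 h, against 183 and 254 CPM at 4 h, a log2 fold change of 1.01 ± 0.25. Fosl2, an AP-1 subunit, was higher by 1.08 ± 0.28. The call of Dusp1 was lost without Ctrl 4 h replicate 1, Ctrl 4 h replicate 2 or Ctrl 6 h replicate 1 (adjusted p of 0.26, 0.0684 and 0.193), and that of Csrnp1 without Ctrl 6 h replicate 2 (0.0502). Egr2 was at 0 and 0.587 CPM at 6 h, against 2.16 and 3.88 CPM at 4 h, under the floor of 3 counts at 6 h, and its call was lost without any 1 of the 4 libraries (adjusted p of 0.0544 to 0.225). Egr1 was at 13.4 and 6.16 CPM at 6 h and 13.5 and 14.0 CPM at 4 h and was not called, after means of 538 and 152 CPM at 1 and 2 h.

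None of the 25 NF-kB subunit and regulator genes was called in either direction, a count near that given by the 3.7% of all genes tested, and their median log2 fold change was −0.06. At an unadjusted p under 0.05 edgeR had 2 of them higher and 2 lower, and the DESeq2 Wald test called 1 lower and limma-voom 0. Nfkbia, which encodes the inhibitor IkBa, was at 4267 and 5794 CPM at 6 h and 8569 and 7706 CPM at 4 h (−0.69 ± 0.22, adjusted p = 0.0788, edgeR). Nfkbiz, the nuclear IkBz cofactor, was at 806 and 689 CPM at 6 h and 924 and 931 CPM at 4 h (−0.31 ± 0.20). Tnfaip3, which encodes the ubiquitin editor A20, had a change of −0.28 ± 0.23. The 16 regulators of mRNA decay likewise gave 0 calls in edgeR, with a median of 0.13, against 3 higher and 0 lower at an unadjusted p under 0.05, 1 higher with DESeq2 and 0 with limma-voom. Zfp36, which encodes the AU-rich element binding protein tristetraprolin, was at 369 and 425 CPM at 6 h and 457 and 483 CPM at 4 h (−0.25 ± 0.24).

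Vdr, Midn and Saa3 were among the largest rises. Saa3, an acute-phase serum amyloid gene, was at 710 and 814 CPM at 6 h, against 128 and 150 CPM at 4 h, a log2 fold change of 2.46 ± 0.31 (adjusted p = 0.000307, edgeR, n = 2 per group). Its means at 0, 1 and 2 h were 36.2, 45.6 and 83.7 CPM. Vdr, the vitamin D receptor gene, was at 27.5 and 19.1 CPM at 6 h, against 1.35 and 1.51 CPM at 4 h (4.00 ± 0.53). The 4 h values rest on 5 and 7 counts, and the call was lost in the model of 20 libraries (adjusted p = 0.317), while DESeq2 gave no adjusted p for this gene. Midn, which encodes the proteasome-associated protein midnolin, was at 69.8 and 59.6 CPM at 6 h, against 13.2 and 9.27 CPM at 4 h (2.53 ± 0.29). Unlike Saa3, Midn had been high before the stimulus, with means of 58.0, 35.2 and 9.45 CPM at 0, 1 and 2 h. Stk17b, a kinase gene of the death-associated family, was at 93.5 and 54.3 CPM at 6 h, against 15.4 and 19.6 CPM at 4 h (2.07 ± 0.29), after means of 70.2, 119 and 61.5 CPM at 0, 1 and 2 h.

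Several other large rises gave genes their highest mean at 6 h. Adora2b, the adenosine A2B receptor gene, was at 162 and 81.6 CPM at 6 h, against 32.1 and 26.7 CPM at 4 h (2.05 ± 0.38). Cytip, which encodes a cytohesin-binding protein, was at 30.3 and 36.7 CPM at 6 h, against 4.31 and 7.12 CPM at 4 h (2.53 ± 0.36). Car2, a carbonic anhydrase gene, was at 77.4 and 58.7 CPM at 6 h, against 16.4 and 19.8 CPM at 4 h (1.90 ± 0.34). The rule for the 15 largest rises required groups that do not overlap. Gpr31b, Rnf217, Chst14, Fgfbp3, Sytl3, Itsn1, Iffo2 and Elmsan1 complete the 15 largest rises, at log2 fold changes of 1.86 to 2.83. Among these, Itsn1 had its highest mean at 0 h, and Iffo2 and Elmsan1 had theirs at 1 h. The calls of Adora2b, Rnf217, Itsn1, Iffo2, Fgfbp3, Car2, Elmsan1 and Gpr31b were lost without Ctrl 4 h replicate 1, at adjusted p of 0.063, 0.0585, 0.0603, 0.221, 0.0914, 0.0695, 0.0742 and 0.0587. Without Ctrl 4 h replicate 2 those of Adora2b (0.101), Rnf217 (0.056), Itsn1 (0.0777), Iffo2 (0.15), Chst14 (0.0922) and Sytl3 (0.0709) were lost. Without Ctrl 6 h replicate 1 those of Adora2b (0.0674), Fgfbp3 (0.0766), Iffo2 (0.179) and Elmsan1 (0.0551) were lost, and without Ctrl 6 h replicate 2 those of Sytl3 (0.179), Rnf217 (0.0502), Itsn1 (0.0645) and Iffo2 (0.0502).

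Among effector enzymes and receptors, 3 of 29 tested were higher and 1 lower, out of 30 listed, with a median log2 fold change of 0.26. The shares of all genes tested were 1.78% higher and 1.92% lower. Nos2 was at 1252 and 598 CPM at 6 h, against 334 and 327 CPM at 4 h, a log2 fold change of 1.48 ± 0.31 (adjusted p = 0.0125, edgeR). The 6 h libraries of Nos2 differed 2-fold from each other, and both lay above the 4 h libraries. Without Ctrl 6 h replicate 1 the log2 fold change was 0.85 (adjusted p = 0.184), and the call was also lost without Ctrl 4 h replicate 1 (0.11) or replicate 2 (0.116). Cd38, the ectoenzyme that consumes NAD, was at 170 and 116 CPM at 6 h, against 48.5 and 64.7 CPM at 4 h (1.33 ± 0.28), and was not called without Ctrl 4 h replicate 1 (adjusted p = 0.141), Ctrl 4 h replicate 2 (0.0527) or Ctrl 6 h replicate 1 (0.121). Plaur, the urokinase receptor gene, was lower (−0.97 ± 0.26), a call lost without any 1 of the 4 libraries (adjusted p of 0.0995 to 0.219), with the replicate block (0.0503) and with only the 4 libraries compared (0.0551). Acod1, the enzyme that makes itaconate, was at 12875 and 13992 CPM at 6 h and 14709 and 15083 CPM at 4 h and was not called (−0.15 ± 0.21).

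Receptors and regulators of cytokine signalling gave 4 higher and 1 lower of 27 tested, out of 28 listed, with a median log2 fold change of 0.17. All genes tested gave 1.78% higher and 1.92% lower. Il4ra, the interleukin 4 receptor alpha chain gene, was at 232 and 259 CPM at 6 h, against 86.0 and 105 CPM at 4 h (1.36 ± 0.23, adjusted p = 0.00261, edgeR). Ifngr2, a chain of the IFNg receptor, was at 188 and 136 CPM at 6 h, against 43.7 and 48.5 CPM at 4 h (1.81 ± 0.31). The calls of Il4ra and Ifngr2 were lost without Ctrl 4 h replicate 1 (adjusted p of 0.063 and 0.0585). Nfil3, a bZIP transcription factor gene, was at 59.5 and 64.2 CPM at 6 h, against 17.0 and 18.3 CPM at 4 h (1.81 ± 0.26). It had a first maximum of 74.6 CPM at 1 h, so its 6 h rise was a second one. Ptpn1, a phosphatase that acts on JAK kinases, was at 853 and 733 CPM at 6 h, against 402 and 405 CPM at 4 h (0.97 ± 0.22). Cish, a suppressor of cytokine signalling, was lower, with 13.4 and 27.0 CPM at 6 h, against 83.8 and 80.5 CPM at 4 h (−2.01 ± 0.33). Socs1 and Socs3 of the same family were not called (−0.67 ± 0.23 and −0.16 ± 0.26).

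Interferon-response genes were called at shares near those of all genes tested (1.78% higher, 1.92% lower). Of 42 type I interferon-response genes 1 was higher and 0 lower, and their median log2 fold change was 0.00. Of 25 IFNg-response genes 1 was higher and 0 lower, with a median of 0.02. The first was Stat2, a subunit of the interferon-activated factor ISGF3, at 2845 and 2390 CPM at 6 h, against 1303 and 1385 CPM at 4 h (0.96 ± 0.22). The second was Fgl2, a secreted immune regulator gene, at 13582 and 13931 CPM at 6 h, against 6950 and 7865 CPM at 4 h (0.89 ± 0.22). Stat2 was not called without Ctrl 4 h replicate 1 (adjusted p = 0.15), Ctrl 4 h replicate 2 (0.114) or Ctrl 6 h replicate 1 (0.141), and Fgl2 not without any 1 of the 4 (0.123 to 0.228). Rsad2, which encodes viperin, was at 30653 and 26065 CPM at 6 h and 31912 and 42493 CPM at 4 h (−0.39 ± 0.23). Mx1 (−0.26 ± 0.23), Ifit1 (−0.12 ± 0.31) and Irf7 (0.21 ± 0.28) were not called. The 23 MHC class I genes and the 9 tested of 11 class II genes gave 0 calls in edgeR, DESeq2 and limma-voom, with medians of 0.13 and −0.11. At an unadjusted p under 0.05 class I had 2 higher and 2 lower and class II 0 and 1. B2m was at 8269 and 7632 CPM at 6 h and 7593 and 25089 CPM at 4 h, so that a single library set its mean at 4 h.

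Of 26 glycolysis and HIF1A target genes tested 2 were higher and 1 lower. Of 24 sterol and lipid genes tested 1 was higher and 2 were lower. The shares over all genes tested were 1.78% higher and 1.92% lower. Hif1a, the oxygen-regulated transcription factor gene, was at 728 and 507 CPM at 6 h, against 320 and 266 CPM at 4 h, a log2 fold change of 1.07 ± 0.23 (adjusted p = 0.0137, edgeR). Egln1, the prolyl hydroxylase that marks HIF1A for degradation, averaged 26.3 ± 6.08 CPM at 6 h, against 11.2 ± 0.267 CPM at 4 h (SD, n = 2), a log2 fold change of 1.22 ± 0.33, and the hexokinase gene Hk2 was at 164 and 166 CPM, against 302 and 348 CPM (−0.98 ± 0.22). These were the 3 calls among 26 glycolysis and HIF1A target genes tested of 28, whose median was 0.34. Hif1a was not called without Ctrl 4 h replicate 1 (adjusted p = 0.0686), Ctrl 4 h replicate 2 (0.155) or Ctrl 6 h replicate 1 (0.164), and Egln1 (0.061 to 0.253) and Hk2 (0.0631 to 0.141) were not called without any 1 of the 4 libraries. Of 24 sterol and lipid genes tested of 26, Insig1 (−1.24 ± 0.23) and Mylip (−0.91 ± 0.22), which restrain sterol synthesis and uptake, were lower, and the cholesterol exporter gene Abcg1 was higher (0.86 ± 0.22). Mylip (0.085 to 0.166) and Abcg1 (0.0821 to 0.268) were not called without any 1 library, and Insig1 not without Ctrl 4 h replicate 2 (0.056) or Ctrl 6 h replicate 2 (0.0524).

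NRF2 is the transcription factor of the response to oxidants and electrophiles. Of 23 NRF2 targets and metal genes tested, out of 24 listed, 4 were lower and 1 higher, with a median log2 fold change of −0.43. Shares over all genes tested were 1.92% lower and 1.78% higher. The values of 20 members were below 0, where the median of all genes tested was −0.03. Slc40a1, the iron exporter ferroportin, was at 9.28 and 7.33 CPM at 6 h, against 33.4 and 21.8 CPM at 4 h (−1.73 ± 0.32). Gclm, the modifier subunit of glutamate-cysteine ligase in glutathione synthesis, was at 123 and 95.3 CPM at 6 h, against 240 and 228 CPM at 4 h (−1.10 ± 0.25). Hmox1, haem oxygenase 1, and Srxn1, sulfiredoxin, were lower by −1.40 ± 0.37 and −1.13 ± 0.28. Nfe2l2, the gene of NRF2 itself, was higher, at 578 and 256 CPM at 6 h, against 164 and 148 CPM at 4 h (1.42 ± 0.32), with a 2-fold spread at 6 h. The Nfe2l2 call was lost without Ctrl 6 h replicate 1 (log2 fold change 0.71, adjusted p = 0.292), Ctrl 4 h replicate 1 (0.136) or Ctrl 4 h replicate 2 (0.179). Gclm (0.0501 to 0.141) and Srxn1 (0.0654 to 0.192) were not called without any 1 library, and Slc40a1 not without Ctrl 4 h replicate 1 (0.0777) or Ctrl 6 h replicate 2 (0.0645).

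**Figure D3:**
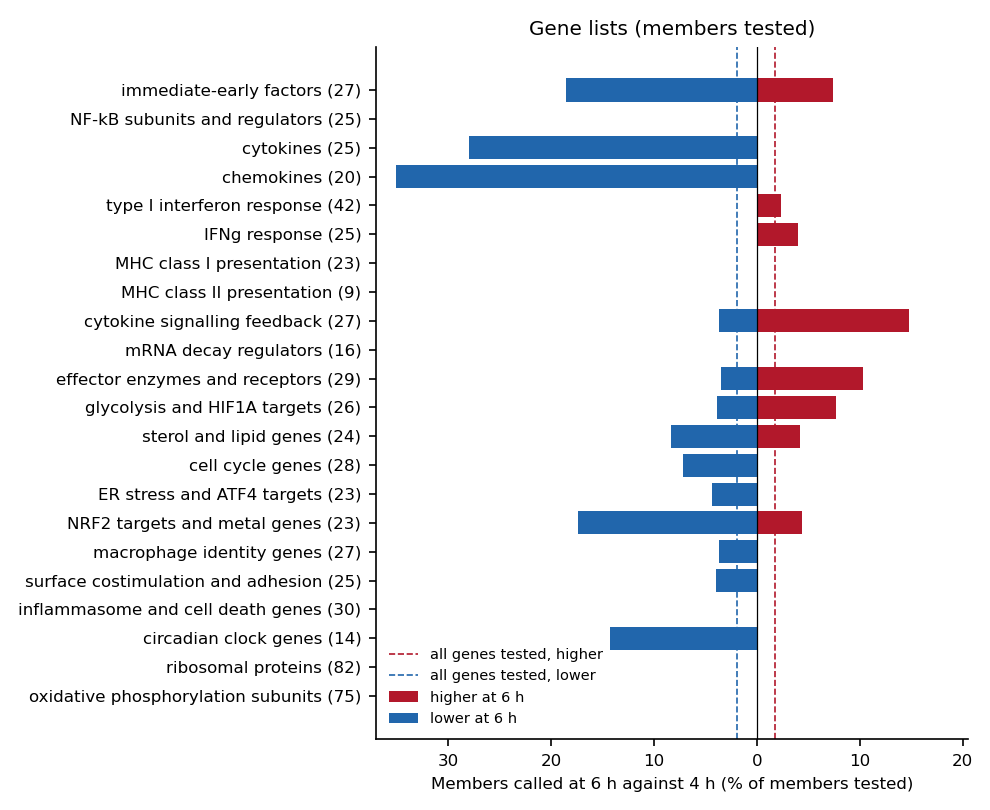
Share of the tested members of 22 gene lists called higher (red, to the right) or lower (blue, to the left) at 6 h than at 4 h, in percent, with dashed lines at the shares of all genes tested (1.78% higher, 1.92% lower). Chemokines (7 of 20) and cytokines (7 of 25) have the longest bars to the left and no bar to the right.

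Genes grouped by their response in the first 2 h split differently in the step from 4 to 6 h. Classes were made from the libraries at 0, 1 and 2 h alone, with limits of 0.05 on the adjusted p and 1 on the log2 fold change. Of 550 genes induced at 1 h, 60 were lower at 6 h than at 4 h (10.9%) and 15 higher (2.73%), against 1.92 and 1.78% of all genes tested, and their median log2 fold change was −0.21. Of 731 genes induced at 2 h but not at 1 h, 26 were lower (3.56%) and 11 higher (1.5%), with a median of −0.08. The 1014 genes lowered at 2 h showed the reverse split, with 43 higher (4.24%) and 8 lower (0.789%) and a median of 0.37. The 0, 1 and 2 h libraries also enter the filter, scaling and spread estimate of the model that compares 6 with 4 h. With only the 4 libraries compared in that model, 58 of the genes induced at 1 h were lower and 16 higher, and 33 of those lowered at 2 h were higher and 4 lower. Without 1 library the induced genes that were lower numbered 32 (Ctrl 4 h replicate 1), 23 (Ctrl 4 h replicate 2), 26 (Ctrl 6 h replicate 1) or 25 (Ctrl 6 h replicate 2), and the lowered genes that were higher 5, 9, 15 or 18 in the same order. Midn and Elmsan1 are examples of lowered genes that rose again. The Midn mean reached 64.7 CPM at 6 h, against 58.0 CPM at 0 h, while Elmsan1 stayed under its 0 h level. Elmsan1 was at 25.1 and 17.3 CPM at 6 h, against 4.85 and 6.47 CPM at 4 h, after means of 40.0, 46.8 and 14.6 CPM at 0, 1 and 2 h. A gene called higher cannot have its highest mean at 4 h, nor a gene called lower at 6 h, so the call fixes part of what follows. Over the whole time course 123 of the 184 higher genes had their highest mean at 6 h, while the 0 h mean was highest in 34 and the 1 h mean in 27. Of 9978 genes not called 2157 had it at 6 h. Of the 199 lower genes 39 peaked at 0 h, 43 at 1 h, 75 in the 2 h libraries and 42 in the 4 h libraries.

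**Figure D4:**
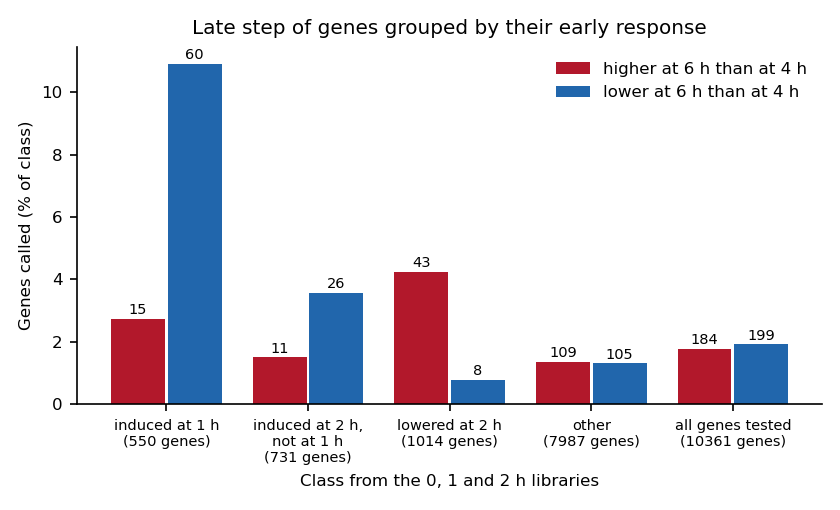
Percent of genes called higher (red) or lower (blue) at 6 h than at 4 h, for classes made from the 0, 1 and 2 h libraries and for all genes tested, with the number of genes above each bar. Genes induced at 1 h have 60 lower and 15 higher, and genes lowered at 2 h have 8 lower and 43 higher.

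The same step was compared with that of cells given DI before the stimulus, in 1 model of 20 libraries with a term for the difference of the steps. Of 10663 genes tested 3 were called (0.0281%), all with a more negative step in Ctrl. Cxcl2 was at 795 and 847 CPM in Ctrl at 6 h, against 4022 and 2983 CPM in Ctrl at 4 h, and at 5172 and 8709 CPM in DI at 6 h, against 3810 and 4109 CPM in DI at 4 h, scaled over the 20 libraries. The difference of the 2 steps was −2.90 ± 0.41 on the log2 scale (adjusted p = 0.00175, edgeR). Cxcl1 was at 13.2 and 32.9 CPM in Ctrl at 6 h, against 179.5 and 142 CPM in Ctrl at 4 h, and at 299.6 and 281 CPM in DI at 6 h, against 152 and 131 CPM in DI at 4 h, a difference of −3.83 ± 0.55 (adjusted p = 0.00175, edgeR). Slc16a10, an aromatic amino acid transporter gene, averaged 14.1 ± 0.742 CPM in Ctrl at 6 h, against 41.6 ± 2.65 CPM in Ctrl at 4 h, and 89.8 ± 12.5 CPM in DI at 6 h, against 49.2 ± 4.66 CPM in DI at 4 h (SD, n = 2), a difference of −2.43 ± 0.44 (adjusted p = 0.0409, edgeR). The DI step of these 3 genes was not called by itself (log2 fold changes of 0.81, 1.03 and 0.87). The DESeq2 Wald test called 30 genes for this difference, and without DI 4 h replicate 1 the count was 39, without DI 6 h replicate 1 it was 5. It was 2 with only the 8 libraries at 4 and 6 h, and also without Ctrl 4 h replicate 1, Ctrl 4 h replicate 2, Ctrl 6 h replicate 1 or DI 4 h replicate 2. Genes with 1 to 3 reads numbered 422 to 674 in the DI libraries at 4 and 6 h and 1631 to 1741 in the Ctrl libraries at these times, and the part of this difference in the result was not tested.

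**Figure D5:**
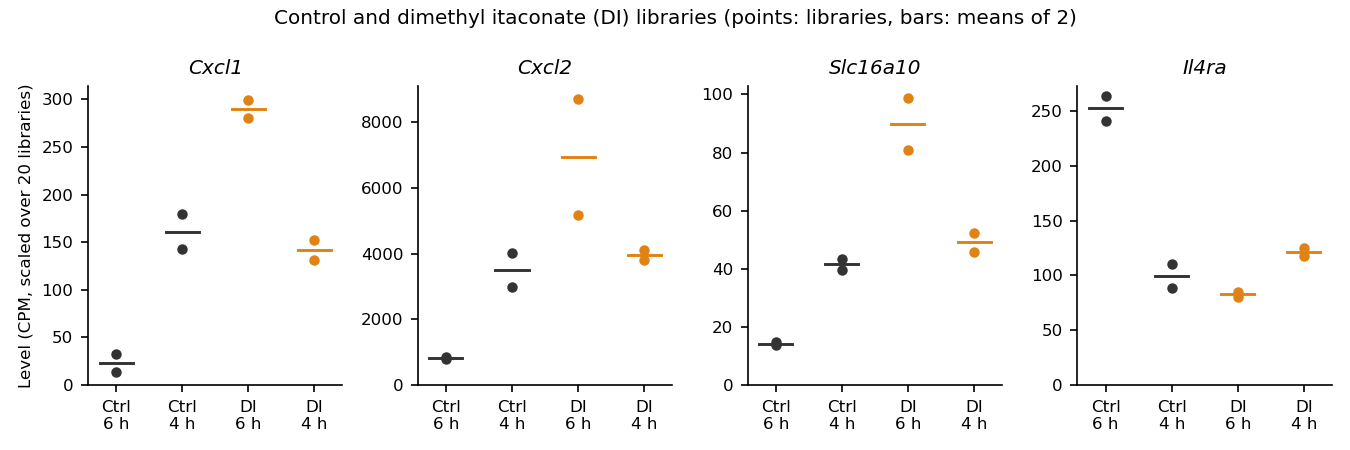
Levels of 4 genes (vertical axes, CPM scaled over 20 libraries, each from 0) in Ctrl and DI libraries at 6 h and 4 h, with a point per library and a bar at the mean of 2. Cxcl1, Cxcl2 and Slc16a10 are lower at 6 h than at 4 h in Ctrl and higher at 6 h than at 4 h in DI, while the difference of steps of Il4ra was not called.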

How the data were processed

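RNA of 20 macrophage libraries was measured by 3′-end sequencing. Per the labels' protocols, mRNA was primed with a barcoded oligo-dT primer, samples were pooled by Actb signal and the pool was amplified by 12 cycles of PCR, without molecular identifiers being named. The floor of 3 counts takes account of counting error alone, while the standard errors rest on the spread between libraries. As deposited, the values are unnormalized read counts, 1 row per Ensembl gene. STAR, HTSeq, DESeq2 and the mm10 build appear in the submitters' processing notes. Versions and the strand setting are not given in the sources used here, so reads of overlapping or near-identical genes (Ifit3b, H2-Q7, Gapdh) may be shared. Of 22165 genes 21745 matched a symbol of GENCODE M21.

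Counts of the 10 Ctrl libraries were filtered (filterByExpr), scaled (TMM) and tested with edgeR 4.0.16 in R 4.3.3 (glmQLFit, robust), 1 coefficient per group, with Benjamini-Hochberg adjustment over all 10361 genes. The difference from the DI step was tested over 20 libraries and 10663 genes. Standard errors are from the F statistic. CPM are TMM-scaled, except those of markers. Limma 3.58.1 (voom) and DESeq2 1.42.0 (Wald) were alternatives, as were size factors, filters, a replicate block and leaving out libraries. The steps were tested on simulated data. Of simulated 2-fold changes between 4 and 6 h 35% were called, and of 4-fold changes 97%. Of 140 calls 8 fell on unchanged genes. A gene not called here may therefore still have changed 2-fold. The main model does not pair libraries by replicate number. Between Ctrl groups 0 of 10 correlations of deviations exceeded 0.1, which cannot exclude a pairing because they run over all genes. Mitochondrial percent was higher in replicate 1 than in replicate 2 in every group, for example 1.81 and 1.39% in Ctrl at 0 h and 1.32 and 1.30% at 6 h.

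Named genes are the 15 largest changes per direction (called, at least 20 CPM in the higher group, groups not overlapping), up to 4 members per list with the smallest p, the genes called for the difference of steps and a panel, not all of which is reported here. Csf1, Tnfsf15, Cxcl3, Ccl2, Cxcl11, Ier5, Mafk, Fosl2, Ptpn1 and Hmox1 are list members outside that rule, chosen after their values were seen. These genes were not followed singly through the alternative fits, and the losses given for Csf1, Tnfsf15, Cxcl3 and Ccl2 follow from list counts. The comparison and the 22 gene lists were chosen with earlier results of these data known. So was the main model, which leaves out the DI libraries because an earlier analysis found a much larger spread between their replicates. Promoters are RefSeq windows on GRCm38.p6, 1 start per gene, and UTRs the longest 3′ UTR per gene in GENCODE M21. Motifs were searched on both strands of promoters.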

Additional observations from a re-analysis of the deposited data

Results flagged for a closer look

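The change between 4 and 6 h differed between Ctrl and DI cells for 3 genes, by the test of the difference itself (edgeR, 20 libraries). The Ctrl step minus the DI step was −2.90 ± 0.41 for Cxcl2 and −3.83 ± 0.55 for Cxcl1 on the log2 scale (adjusted p = 0.00175 for both). It was −2.43 ± 0.44 for Slc16a10 (adjusted p = 0.0409). In each gene both Ctrl libraries at 6 h lay under both at 4 h, and both DI libraries at 6 h lay above both at 4 h.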

How the results depend on the processing

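Against 383 calls at 6 h (184 higher, 199 lower), no filter on low counts gave 712 (330 and 382) and the model of 20 libraries 56 (16 and 40), with 2 lower cytokine genes and 587 calls for 4 h against 2 h. Limma-voom called 119 lower. With a class limit of 2 the genes induced at 1 h gave 38 lower and 6 higher, and those lowered at 2 h 12 higher and 1 lower. The last count was 18 with TMM factors of genes of at least 32 CPM and 4 with only the 4 libraries compared, against 8. The DESeq2 Wald test called 30 differences of steps, against 3. The cause of these changes was not tested. Leaving out 1 library gave ranges of 100 to 162 calls, 26 to 97 higher, 65 to 79 lower, 3 to 5 cytokine and 4 to 6 chemokine genes lower, 23 to 32 lower and 2 to 14 higher of those induced at 1 h, 5 to 18 higher and 2 to 5 lower of those lowered at 2 h, 2 to 39 differences of steps and 857 to 1212 calls at 4 h against 2 h, with fewer samples in each fit. The lone library of a group was then assumed to vary like the others. With the replicate block there were 355 calls (171 higher, 184 lower), 3 differences of steps and 1728 calls at 4 h against 2 h. Of 63 called named genes 17 kept their call under all 13 alternatives and 0 changed sign. The model of 20 libraries ended 38 of these calls. Among them were Nos2, Hif1a, Stat2, Fgl2, Cd38, Cish, Bcor, Cytip and Gpr31b (adjusted p of 0.07 to 0.337, edgeR). Limma-voom ended 9, those of Iffo2, Hhex, Egr2, Egln1, Mcm2, Nfe2l2, Tgfbr1, Dbp and Bhlhe41, and the DESeq2 Wald test 1, that of Bhlhe41 (adjusted p = 0.0715). DESeq2 gave no adjusted p for Vdr, Sytl3, Dbp and Il12a, which are left out of that count. At these depths, levels under 0.647 to 1.03 CPM, by library, rest on fewer than 3 counts.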

Other observations

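Cell cycle genes had a median log2 fold change of −0.49 at 6 h against 4 h, with 2 of 28 tested lower and 0 higher (edgeR). Among all genes tested 1.92% were lower and 1.78% higher. At an unadjusted p under 0.05 the cell cycle genes had 8 lower and 1 higher. DESeq2 called 3 lower and 1 higher, and limma-voom 1 and 0. The 2 genes lower in edgeR encode subunits of the MCM helicase that unwinds DNA in replication. Mcm6 was at 4.13 and 9.09 CPM at 6 h, against 23.7 and 23.1 CPM at 4 h (−1.80 ± 0.34), and Mcm2 had 1 count in each 6 h library, against 8.09 and 4.10 CPM at 4 h. The call of Mcm6 was lost without Ctrl 6 h replicate 1 (adjusted p = 0.0716) and that of Mcm2 without Ctrl 6 h replicate 2 (0.0529). Of 14 circadian clock genes 2 were lower, the clock output factor Dbp, at 0 in both 6 h libraries and 2.70 and 1.73 CPM at 4 h, and the repressor Bhlhe41, at 0 and 0.293 CPM at 6 h and 1.62 and 3.67 CPM at 4 h. Neither was called without any 1 of the 4 libraries (0.0963 to 0.168 and 0.0608 to 0.284).

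The counts in this paragraph stand beside shares of 1.92% lower and 1.78% higher for all genes tested. Of 27 macrophage identity genes 1 was lower, Tgfbr1, a TGF-beta receptor gene (−1.35 ± 0.32). Csf1r, the receptor of m-CSF, was at 99.0 and 128 CPM at 6 h and 200 and 197 CPM at 4 h without being called (adjusted p = 0.0768, edgeR). Of 25 costimulation and adhesion genes Icosl, a T cell costimulatory ligand gene, was lower, with 8.25 and 6.75 CPM at 6 h, against 24.3 and 21.4 CPM at 4 h (−1.61 ± 0.32). Icosl was not called without Ctrl 4 h replicate 1 (0.0682) or Ctrl 6 h replicate 2 (0.0801), and Tgfbr1 not without any 1 library (0.102 to 0.127). Of 23 endoplasmic reticulum stress and ATF4 targets 1 was lower, the eIF2 alpha phosphatase subunit gene Ppp1r15a (−1.02 ± 0.23), also lost without any 1 library (0.0766 to 0.113). The 30 inflammasome and cell death genes, 82 ribosomal protein genes and 75 oxidative phosphorylation subunits gave 0 calls in edgeR, with medians of −0.12, −0.26 and −0.11. At an unadjusted p under 0.05 these lists had 1, 0 and 0 members higher and 5, 2 and 5 lower. DESeq2 called 1 higher and 2 lower inflammasome genes, limma-voom 1 higher, and neither tool any ribosomal protein gene or oxidative phosphorylation subunit. Of the 82 ribosomal values 73 were below 0, where the median of all genes tested was −0.03.

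Outside the lists and the rule, and chosen after their values were seen, Pou2f2, which encodes the transcription factor OCT2, was at 1389 and 1004 CPM at 6 h, against 341 and 376 CPM at 4 h (1.74 ± 0.23). Tnfaip2 was at 3246 and 3837 CPM at 6 h, against 9744 and 9612 CPM at 4 h (−1.45 ± 0.23). Their groups did not overlap, which holds for all 184 genes called higher and all 199 called lower.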
